A study of Homo sapiens with 18 samples.

Results

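CXCR4, S1PR1, STOM, LHX6 and OLFML2A are 5 genes of MDA-MB-231 cells whose mRNA responded differently to Dex once PRMT5 was depleted. CXCR4 was 1.90-fold lower with Dex in siNS cells and 3.14-fold higher with Dex in siPRMT5 cells. S1PR1 and STOM were 4.92-fold and 3.52-fold higher with Dex in siPRMT5 cells and differed little in siNS cells. LHX6, which was 4.64-fold higher with Dex in siNS cells, was 1.32-fold higher in siPRMT5 cells, and OLFML2A, which differed little in siNS cells, was 2.46-fold lower with Dex in siPRMT5 cells. The 5 genes were chosen from those whose Dex fold change differed most between siPRMT5 and siNS cells, so their values in these libraries are given as a description and without a test. They are 5 of the 60642 gene symbols counted and of the 15298 genes kept by the filter on low counts, which all 5 passed.

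RNA was measured by sequencing in MDA-MB-231, an established human TNBC cell line of mesenchymal type, and all libraries came from this single line. Cells received 25 nM of SMART-pool siRNA for 48 h, either siNS (a non-specific sequence), siHP1γ (against CBX3, the gene of HP1γ) or siPRMT5. Each of these was treated with 100 nM Dex, a synthetic glucocorticoid that activates the glucocorticoid receptor (GR), or with its vehicle ethanol (Eth), for 8 h. The 6 conditions had 3 biological replicates each, which gave 18 libraries. The siNS cells carried a transfected siRNA as well, so untransfected cells were not a group.

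GR is a ligand-activated transcription factor that binds DNA mostly as a dimer, on an imperfect palindrome of hexamers, and raises or lowers its target genes together with coregulators. PRMT5 is an enzyme that places symmetric dimethyl marks on arginines of histones and of many other proteins, and HP1γ is a chromatin protein that reads methylated H3K9. CXCR4 encodes the receptor of the chemokine CXCL12 and guides cell migration. S1PR1 encodes a receptor of sphingosine 1-phosphate, a lipid that draws lymphocytes out of tissues and steadies vessel walls. Both are receptors coupled to Gi proteins. STOM encodes stomatin, a membrane protein of lipid rafts that modulates ion channels, LHX6 encodes a LIM homeodomain transcription factor of interneuron development, and OLFML2A encodes a secreted protein with an olfactomedin domain.

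The libraries held between 8682992 and 12472381 counts on genes. Levels are given as CPM, which scales the counts of a gene to a common library size, after TMM scaling, whose factors lay between 0.969 and 1.04. Levels of different genes are not compared with each other. PRMT5 was at 226 to 262 CPM in the siNS libraries and at 6.10 to 11.5 CPM in the siPRMT5 libraries, and CBX3 was at 220.4 to 274 CPM in siNS and 9.23 to 15.8 CPM in siHP1γ libraries. In siHP1γ libraries PRMT5 was at 177 to 211 CPM, below all siNS libraries. Against siNS it differed by −0.25 (SE 0.0748) with Eth and by −0.35 (SE 0.0748) with Dex on the log2 scale. Both passed in edgeR (adjusted p = 0.0111 and 0.00123), and their part in the values below was not tested. In siPRMT5 cells the remaining PRMT5 mRNA was 6.10 to 8.37 CPM with Eth and 9.39 to 11.5 CPM with Dex, and the part of this difference in the values below was not tested. NR3C1, the gene of GR, was at 116 to 186 CPM in all libraries. With Dex it was higher in siPRMT5 than in siNS cells, at 158 ± 16 against 127 ± 4.61 CPM (SD, n = 3) without overlap (log2 0.31, SE 0.0895, edgeR adjusted p = 0.0062), and with Eth the difference of 0.18 (SE 0.0894) did not pass. Its part in the values below was not tested. VIM, CD44, AXL, MSN and LGALS1, which mark mesenchymal TNBC lines, were at 182 CPM or more in every library, while ESR1, PGR and CDH1 were at 0.218 CPM or less. AXL, a receptor tyrosine kinase, was lower in siPRMT5 than in siNS cells, at 221 against 963 CPM with Eth and 189 against 829.8 CPM with Dex (4.36-fold and 4.38-fold). ERBB2 (24.5 to 36.0 CPM) and EPCAM (8.57 to 14.0 CPM) were detected at low levels.

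CXCR4 stood first when the genes called for a difference in the Dex response between siPRMT5 and siNS cells (adjusted p under 0.05) and averaging 5 CPM or more, 542 in number, were ranked by its size. S1PR1, STOM and LHX6 took places 2 to 4, and OLFML2A place 13. The means of CXCR4 and S1PR1, 5.52 and 5.5 CPM, lay just above the minimum of 5 CPM. Both were highest in siPRMT5 cells with Dex (8.62 and 12.3 CPM), a group that the choice used, so nothing is read from these places. Places 5 to 12, ahead of OLFML2A, went to genes that were not chosen. Of these, F3 in place 5 differed by 1.78 and CYP1B1 in place 12 by −1.42 on the log2 scale, against −1.81 for LHX6 and −1.40 for OLFML2A. Of all 15298 genes tested, 3.8% were called for this difference, 1.58% as higher in siPRMT5 cells, like CXCR4, S1PR1 and STOM, and 2.23% as lower, like LHX6 and OLFML2A, and nothing is read from the fact that all 5 genes were, since they were chosen by it. The plot of levels by library shows the 18 values of each gene.

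**Figure D1:**
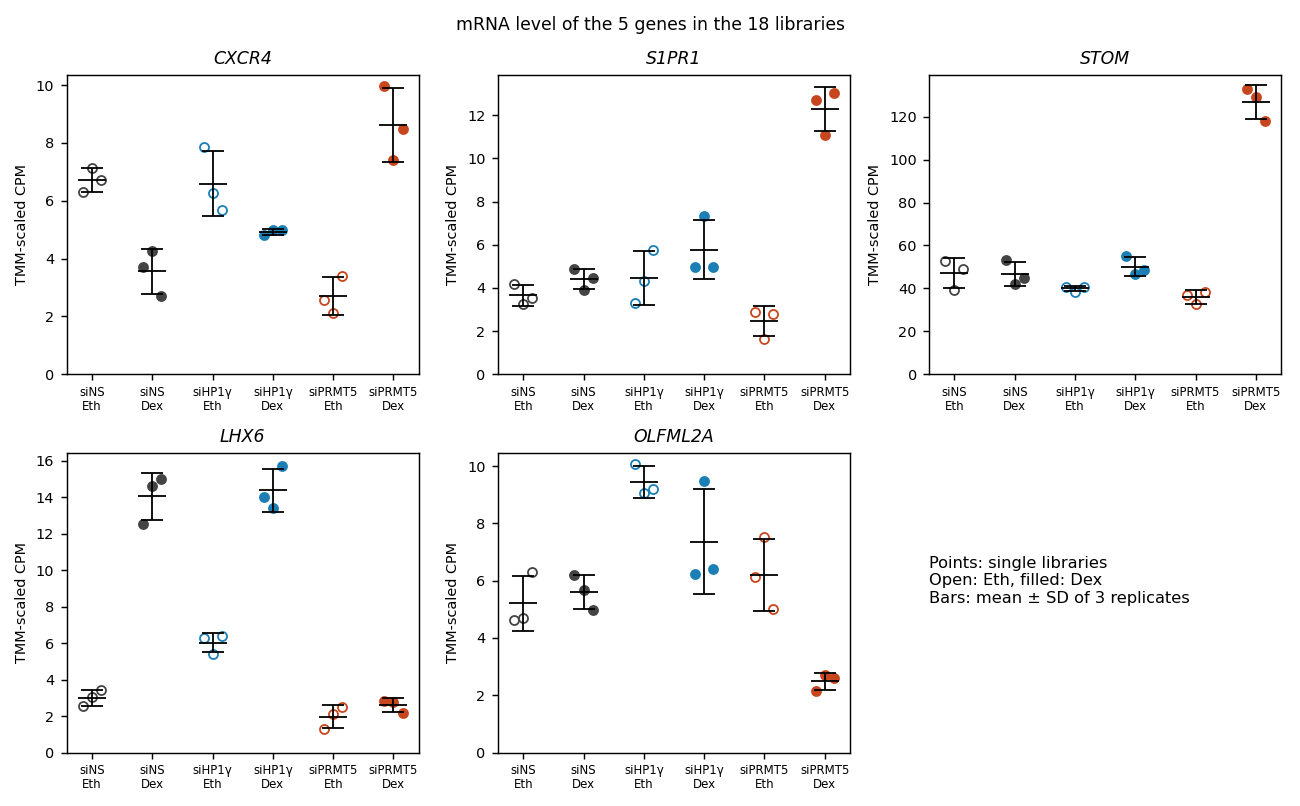
Level of CXCR4, S1PR1, STOM, LHX6 and OLFML2A in each of the 18 libraries, in TMM-scaled CPM on the vertical axis (starting at 0), by siRNA and treatment on the horizontal axis. Points are single libraries (open for Eth, filled for Dex) and bars are the mean ± SD of 3 replicates. CXCR4, S1PR1 and STOM have their highest libraries in siPRMT5 cells with Dex, and LHX6 stays at 2.83 CPM or less in all siPRMT5 libraries.

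CXCR4 (ENSG00000121966.8, GENCODE 44 on hg38, chr2:136114349-136119177, minus strand) was at 6.29, 7.13 and 6.73 CPM in siNS cells with Eth and at 3.71, 4.25 and 2.72 CPM with Dex. In siPRMT5 cells it was at 2.58, 2.113 and 3.40 CPM with Eth and at 9.97, 7.40 and 8.49 CPM with Dex. The Dex libraries were thus all below the Eth libraries in siNS cells and all above them in siPRMT5 cells. The Dex response was −0.93 (SE 0.190) in siNS and 1.65 (SE 0.195) in siPRMT5 cells on the log2 scale, a difference of 2.58 (SE 0.274). Both ends moved by a similar amount: depletion of PRMT5 went with a level 2.46-fold lower under Eth (log2 −1.30, SE 0.205) and 2.43-fold higher under Dex (log2 1.28, SE 0.181). CXCR4 was the only gene of the 15298 tested (0.00654%) that was called in both siNS and siPRMT5 cells with opposite signs (a call needed an adjusted p under 0.01 and a change of 1.5-fold or more), a pattern that its choice favoured.

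The CXCR4 locus holds 2 copies of the GR palindrome (GNACA and TGTNC with 3 bases between them, where N is any base, which reads the same on both strands) within 10 kb of the start of its canonical transcript, and both are printed on the strand of the gene, from hg38, with the palindrome in capitals, to show the letters that matched. One lies 414 bases downstream of the start, at chr2:136117721-136117749, in an intron of the canonical transcript that is exonic in another transcript. The other lies 4088 bases upstream, at chr2:136122223-136122251, between genes.
CXCR4 downstream: aaacgtaaGAACATTCTGTGCacaagtgc
CXCR4 upstream: taggcaagGGACAATTTGTTCcacctaac
Such a match lay within 10 kb of the canonical start of 22% of genes tested with 1 GENCODE 44 position (2975 of 13500). It did so for 35.9% of those called as higher with Dex in siNS cells. For those called as higher with Dex in siPRMT5 cells it was 32.7%. Of those called for the difference between siPRMT5 and siNS cells, 22.6% had a match. A match of letters is not a binding site. The 250 bases before the start (RefSeq, GRCh38.p14, chr2:136118150-136118399) are shown because CXCR4 changed direction, with GC boxes (GGGCGG on either strand, overlaps counted) in capitals.
CXCR4 promoter: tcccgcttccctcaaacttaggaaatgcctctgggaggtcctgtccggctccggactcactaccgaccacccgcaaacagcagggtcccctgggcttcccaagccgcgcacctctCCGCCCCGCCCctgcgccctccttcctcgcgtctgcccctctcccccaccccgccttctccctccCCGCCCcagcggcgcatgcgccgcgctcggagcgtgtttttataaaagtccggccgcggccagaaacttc
They held 3 GC boxes, a motif found in 42.6% of 35116 promoters of this length, and no GR palindrome, GR half-site AGAACA or AP-1 site TGANTCA.

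S1PR1 (ENSG00000170989.10, chr1:101236865-101243713, plus strand) was at 4.19, 3.26 and 3.52 CPM in siNS cells with Eth and at 4.86, 3.92 and 4.44 CPM with Dex, and these libraries overlapped. In siPRMT5 cells it was at 2.90, 1.64 and 2.80 CPM with Eth and at 12.7, 11.1 and 13.0 CPM with Dex. Every siPRMT5 library with Dex was above every other library of the series, and every siPRMT5 library with Eth was below every siNS library. The Dex response was 0.28 (SE 0.225) in siNS and 2.30 (SE 0.209) in siPRMT5 cells, a log2 difference of 2.02 (SE 0.317). More of this difference lay under Dex, where siPRMT5 was 2.75-fold above siNS (log2 1.46, SE 0.183), than under Eth, where it was 1.47-fold below (log2 −0.56, SE 0.258). No GR palindrome lay within 10 kb of the start of S1PR1.

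CXCR4 and S1PR1 are abundant in leukocytes and endothelium, so markers of both were counted. Of 6 leukocyte markers, PTPRC and CD3E did not exceed 0.221 CPM in any library, and the summed level of the 6 lay between 1.41 and 3.71 CPM. CORO1A was the highest of them, at 1.06 to 2.85 CPM, and CD14 reached 1.17 CPM. The summed level of 5 endothelial markers was 3.64 to 5.10 CPM in siNS with Eth, 11.9 to 12.7 CPM in siNS with Dex, 4.50 to 6.57 CPM in siPRMT5 with Eth and 20.1 to 23.1 CPM in siPRMT5 with Dex, and it was 5.22 to 6.83 and 10.9 to 12 CPM in siHP1γ with Eth and Dex. It rested on KDR (1.29 to 15.5 CPM) and PECAM1 (1.10 to 8.15 CPM), while the other markers of the list, CDH5, VWF and TEK, stayed at 0.713 CPM or less in every library. In such bulk samples, fewer cells with an mRNA and less mRNA per cell cannot be told apart.

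STOM (ENSG00000148175.13, chr9:121338987-121370304, minus strand) was counted 277 to 1571 times per library. It was at 52.8, 39.3 and 49.1 CPM in siNS cells with Eth and at 53.0, 42.2 and 44.9 CPM with Dex, with full overlap. In siPRMT5 cells it was at 37.1, 32.5 and 38.4 CPM with Eth and at 133, 129 and 118 CPM with Dex, which put the Dex libraries above all other libraries. The Dex response was −0.01 (SE 0.103) in siNS and 1.81 (SE 0.102) in siPRMT5 cells, a log2 difference of 1.82 (SE 0.144). The levels differed mostly under Dex, with siPRMT5 2.71-fold above siNS (log2 1.44, SE 0.0982), against 1.30-fold below under Eth (log2 −0.38, SE 0.106). A long noncoding RNA, ENSG00000227355, overlaps STOM on the other strand, and the strand setting of the counting is not given in the sources used here. No GR palindrome lay within 10 kb of the start.

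The RefSeq promoter of STOM is shown because the Dex response of STOM was near 0 in siNS cells and large in siPRMT5 cells. The stretch is the part of the 250 bases outside annotated exons, 196 bases at chr9:121370305-121370500, and GC boxes and CCAAT boxes (CCAAT on either strand) are in capitals, 2 of each.
STOM promoter: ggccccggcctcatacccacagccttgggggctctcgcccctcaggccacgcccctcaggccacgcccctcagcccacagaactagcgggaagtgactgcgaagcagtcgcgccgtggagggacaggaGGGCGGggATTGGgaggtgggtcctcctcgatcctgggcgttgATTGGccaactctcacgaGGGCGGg
The whole window held 4 GC boxes and 3 CCAAT boxes, which 32% of promoters have, and no GR palindrome, half-site or AP-1 site. The promoter windows of the other members held no match to these last 3 motifs either, which 0.327%, 12.4% and 6.57% of all promoters have. S1PR1 had 1 CCAAT box, LHX6 2 GC boxes and OLFML2A 6 GC boxes. The window of LHX6 lies downstream of its canonical start.

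LHX6 (ENSG00000106852.16, chr9:122202577-122229626, minus strand) was at 2.54, 3.06 and 3.42 CPM in siNS cells with Eth and at 12.54, 14.6 and 14.96 CPM with Dex, without overlap. In siPRMT5 cells it was at 1.29, 2.113 and 2.50 CPM with Eth and at 2.83, 2.79 and 2.15 CPM with Dex, and these libraries overlapped. The Dex response was 2.21 (SE 0.166) in siNS and 0.41 (SE 0.243) in siPRMT5 cells, a log2 difference of −1.81 (SE 0.308). Under Dex, siPRMT5 was 5.33-fold below siNS (log2 −2.41, SE 0.167), and under Eth it was 1.52-fold below (log2 −0.61, SE 0.240), on counts of 12 to 33 per library. LHX6 was therefore the gene of the 5 whose Dex induction was large in siNS cells and whose levels were lower in siPRMT5 cells under both treatments.

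LHX6 had 1 GR palindrome within 10 kb, 7528 bases upstream of its start and between genes, at chr9:122236471-122236499.
LHX6 upstream: ctgtccttGTACAAGATGTGCcttctacc
OLFML2A had 1 as well, 2708 bases upstream and between genes, at chr9:124774411-124774439.
OLFML2A upstream: ggtggaagGAACAGCATGTGCcaaggtcc
Both are printed on the strand of the gene with the palindrome in capitals, as in CXCR4. The palindrome was thus found near 3 of the 5 genes, beside 22% of the 13500 genes scanned, and not near S1PR1 and STOM.

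OLFML2A (ENSG00000185585.20, chr9:124777133-124814885, plus strand) was at 4.64, 4.69 and 6.32 CPM in siNS cells with Eth and at 6.18, 5.67 and 4.99 CPM with Dex, with overlap. In siPRMT5 cells it was at 6.12, 7.51 and 5.00 CPM with Eth and at 2.15, 2.71 and 2.60 CPM with Dex. The 3 siPRMT5 libraries with Dex were the lowest of all 18. The Dex response was 0.10 (SE 0.193) in siNS and −1.30 (SE 0.219) in siPRMT5 cells, a log2 difference of −1.40 (SE 0.294). The levels differed under Dex, with siPRMT5 2.24-fold below siNS (log2 −1.17, SE 0.219), while under Eth the libraries overlapped (log2 0.24, SE 0.194).

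Over the 5 genes, the siPRMT5 and siNS libraries did not overlap under Dex for any gene, where 51.5% of all genes tested had no overlap, and under Eth for 4 of the 5, where 49.1% had none. The Dex and Eth libraries did not overlap for CXCR4 and LHX6 in siNS cells (27.9% of all genes) and for all but LHX6 in siPRMT5 cells (28.7%). By the thresholds above, CXCR4 and LHX6 were called for the Dex response in siNS cells (2.71% of all genes, 1.65% as higher and 1.06% as lower) and the other 3 genes and CXCR4 in siPRMT5 cells (5.44%, 2.69% as higher and 2.75% as lower). These counts follow from the choice, and nothing is read from them. Between siPRMT5 and siNS cells, 42.1% of all genes were called under Eth and 42.4% under Dex at an adjusted p under 0.05. The plot of the Dex response by siRNA sets these values beside those of siHP1γ cells.

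**Figure D2:**
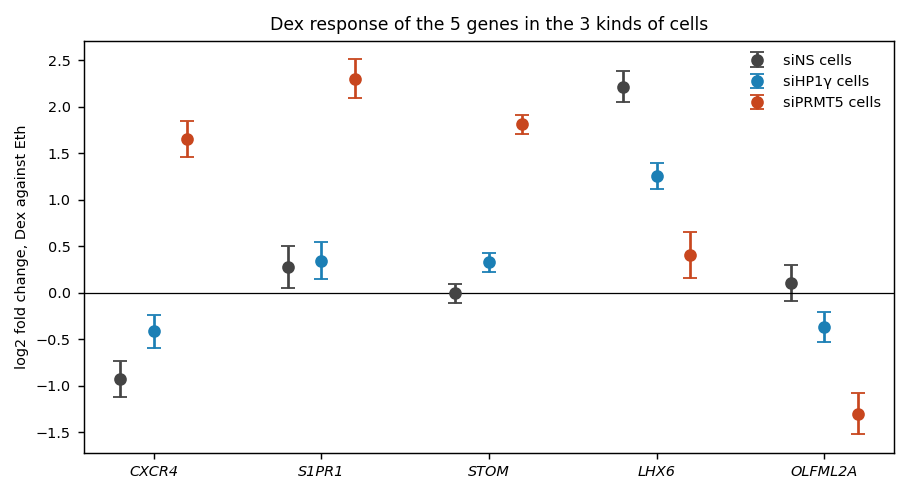
Log2 fold change of Dex against Eth (vertical axis) for the 5 genes (horizontal axis) in siNS, siHP1γ and siPRMT5 cells. Points are the fitted values and bars are ± 1 SE from 3 replicates per condition. The siHP1γ value lies nearer to the siNS value than to the siPRMT5 value for CXCR4, S1PR1, STOM and OLFML2A, and LHX6 descends from 2.21 over 1.25 to 0.41. The choice favoured siPRMT5 values far from the siNS values, so nothing is read from these distances.

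Dex response in siHP1γ cells was the one measure that the choice of genes had not used. LHX6 rose 2.38-fold with Dex in these cells, from 6.26, 5.42 and 6.40 CPM with Eth to 14.0, 13.4 and 15.7 CPM (log2 1.25, SE 0.143, adjusted p = 7.76e-07 by edgeR's quasi-likelihood test over all genes). It was the only 1 of the 5 genes that passed the thresholds there, against 1.67% of all genes tested (1.01% as higher and 0.66% as lower). STOM went from 40.72, 38.5 and 40.6 CPM to 55.0, 46.8 and 48.5 CPM without overlap, but its log2 change of 0.33 (SE 0.103, 95% interval 0.12 to 0.54) did not pass by edgeR's quasi-likelihood test (adjusted p = 0.0596). The 1.81 of STOM in siPRMT5 cells was favoured by the choice, so no test is read from this interval against it.

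CXCR4 was at 7.85, 6.27 and 5.67 CPM with Eth and at 4.802, 4.99 and 4.98 CPM with Dex in siHP1γ cells, all Dex libraries below the Eth libraries. Its log2 change of −0.41 (SE 0.176, 95% interval −0.78 to −0.05) did not pass by edgeR's quasi-likelihood test (adjusted p = 0.202). S1PR1 was at 3.29, 4.30 and 5.76 CPM with Eth and at 4.96, 7.33 and 4.98 CPM with Dex, with overlap, and its change of 0.34 (SE 0.202, 95% interval −0.07 to 0.76) did not pass either (adjusted p = 0.397, same edgeR test). OLFML2A was at 10.1, 9.07 and 9.19 CPM with Eth and at 6.22, 9.48 and 6.39 CPM with Dex, where replicate 2 with Dex overlapped the Eth libraries. Its change of −0.37 (SE 0.165, 95% interval −0.71 to −0.03) did not pass (adjusted p = 0.233, same edgeR test). With 1 library left out, the change of CXCR4 ranged from −0.51 to −0.27, that of S1PR1 from 0.15 (without Dex replicate 2) to 0.58 (without Eth replicate 3) and that of OLFML2A from −0.57 (without Dex replicate 2) to −0.25 (without Dex replicate 1), none of them called. Without overlap were 3 of the 5 genes, where 21.8% of all genes had none. Exact two-sided permutation tests gave p = 0.1 for CXCR4, STOM and LHX6, the smallest that 3 against 3 allows, p = 0.3 for OLFML2A and p = 0.4 for S1PR1.

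Levels in siHP1γ cells are set beside siNS cells as a description, since the siNS libraries entered the choice. LHX6 was 1.99-fold higher in siHP1γ cells with Eth (log2 0.996, SE 0.189) and 1.03-fold higher with Dex (log2 0.04, SE 0.126), so its Dex response was smaller by 0.96 (SE 0.228) from a raised starting level. In siPRMT5 cells, by contrast, the starting level of LHX6 was not raised. OLFML2A was 1.80-fold higher in siHP1γ cells with Eth (log2 0.85, SE 0.179) and 1.30-fold higher with Dex (log2 0.38, SE 0.178). CXCR4 differed by −0.04 (SE 0.172) with Eth and by 0.48 (SE 0.196) with Dex, STOM by −0.24 (SE 0.104) and 0.10 (SE 0.101), and S1PR1 by 0.30 (SE 0.225) and 0.37 (SE 0.202). With Eth, the siHP1γ and siNS libraries did not overlap for LHX6 and OLFML2A (45.5% of all genes had no overlap), and with Dex for CXCR4, S1PR1 and OLFML2A (36.9%). Of all genes, 31.8% were called between siHP1γ and siNS cells with Eth (16.5% as higher) and 24% with Dex, at an adjusted p under 0.05.

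When the 6 conditions were ordered by mean level, siPRMT5 with Dex was highest for CXCR4 (8.62 ± 1.29 CPM, SD, n = 3), S1PR1 (12.3 ± 1.03 CPM) and STOM (127 ± 7.76 CPM), without overlap with the next condition. The same 3 genes had their lowest mean in siPRMT5 cells with Eth, at 2.70 ± 0.652, 2.45 ± 0.697 and 36.0 ± 3.09 CPM, which for CXCR4 overlapped with siNS cells with Dex. The span of these 3 genes over all conditions was thus set by the Eth and Dex libraries of the siPRMT5 cells. For LHX6 the highest were siHP1γ and siNS with Dex (14.4 ± 1.19 and 14.0 ± 1.31 CPM), which overlapped, and the lowest 3 conditions, siNS with Eth and both siPRMT5 conditions, overlapped in a chain. For OLFML2A siHP1γ with Eth was highest (9.44 ± 0.548 CPM), each of the first 4 conditions overlapped with the next, and siPRMT5 with Dex was lowest (2.49 ± 0.298 CPM), without overlap with siNS with Eth before it.

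**Figure D3:**
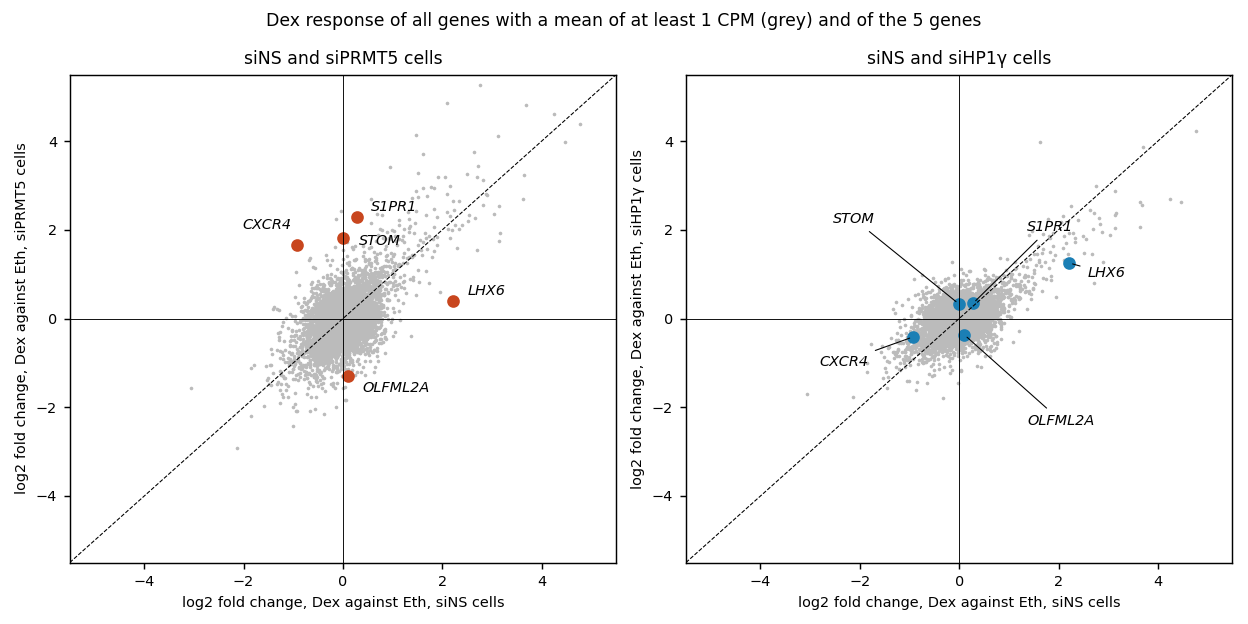
Log2 fold change of Dex against Eth in siNS cells (horizontal axis) against siPRMT5 cells (left) and siHP1γ cells (right). Grey points are genes averaging 1 CPM or more, coloured points are the 5 genes, and the dashed line marks equal responses. In siPRMT5 cells CXCR4 lies at −0.93 and 1.65 and LHX6 at 2.21 and 0.41, on opposite sides of the line, while in siHP1γ cells the 5 genes lie nearer to it. The choice took genes far from the line in siPRMT5 cells, so nothing is read from this contrast.

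Known GR targets rose with Dex in all 3 kinds of cells. Of 13 tested, 11 rose in siNS, 10 in siHP1γ and 11 in siPRMT5 cells, against 1.65%, 1.01% and 2.69% of all genes, and in siPRMT5 cells TSC22D1, a relative of TSC22D3, fell, and the median log2 change was 2.1, 1.71 and 2.4, against 0.00 for all genes tested in each. TSC22D3, which encodes the anti-inflammatory protein GILZ, rose by 3.64 (SE 0.109) in siNS and by 3.24 (SE 0.101) in siPRMT5 cells. For FKBP5, a cochaperone of GR, DUSP1, a phosphatase of MAP kinases, and ERRFI1, an inhibitor of EGFR, the response was larger in siPRMT5 than in siNS cells by 0.84, 1.22 and 0.68 (SE 0.103, 0.108 and 0.0959), with adjusted p = 2.31e-05, 7.96e-08 and 0.000144 by edgeR's quasi-likelihood test. These were 3 of the 13, against 3.8% of all genes, and the other 10 did not pass for this difference. Relative to siNS, TSC22D3, PER1, KLF9 and SGK1 responded less in siHP1γ cells, by −1.003, −0.75, −0.69 and −0.55, and this difference was called in 0.399% of all genes. The calls of PER1 and KLF9 were lost without siNS Eth or Dex replicate 1 or 3 or siHP1γ Eth replicate 2 or 3, and that of SGK1 without the same libraries other than siHP1γ Eth replicate 3 (edgeR adjusted p of up to 0.115, 0.114 and 0.111). The call of TSC22D1 was lost without siPRMT5 Eth replicate 3.

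Of 9 tested genes around CXCR4 signalling, none rose or fell with Dex in siNS or siHP1γ cells at these thresholds, against 2.71% and 1.67% of all genes called, and 1 fell in siPRMT5 cells, against 5.44% called. A share of 1 in 9 is a single gene and says nothing of the list. The gene was GRK5, a kinase that desensitizes receptors, which fell by 0.74 on the log2 scale (SE 0.111, edgeR adjusted p = 1.61e-05), while the difference of its response between siPRMT5 and siNS cells did not pass (−0.39, SE 0.163, edgeR adjusted p = 0.179). ARRB1, the β-arrestin that uncouples and internalizes such receptors, was at 31.7 ± 2.16 CPM with Eth and 43.4 ± 1.39 CPM with Dex in siNS cells, and at 48.3 ± 3.91 and 32.8 ± 0.432 CPM in siPRMT5 cells (SD, n = 3). Its Dex response was lower in siPRMT5 cells by a log2 difference of −1.01 (SE 0.135, edgeR adjusted p = 8.43e-05), a sign opposite to that of CXCR4, and it was the only 1 of the 9 called for the difference, against 3.8% of all genes. CXCL12, the ligand, was listed at 0 in all 18 libraries, but so were MIF, another ligand of CXCR4, and FLOT1, of the stomatin list, which most cells express, so a listed 0 is not read as absent mRNA. ACKR3, the other CXCL12 receptor, had at most 2 counts.

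Of 12 tested genes of sphingosine 1-phosphate signalling, S1PR3, another receptor of this lipid, rose with Dex in all 3 kinds of cells. Of the 12, 2 were called in siNS, 2 in siHP1γ and 3 in siPRMT5 cells, and 2 for the difference between siPRMT5 and siNS cells, beside the shares of all genes of 2.71%, 1.67%, 5.44% and 3.8%. S1PR3 went from 22.0 ± 1.59 to 46.0 ± 4.23 CPM in siNS, from 23.5 ± 1.92 to 47.0 ± 1.45 CPM in siHP1γ and from 18.3 ± 1.57 to 61.8 ± 2.45 CPM in siPRMT5 cells (SD, n = 3). Its response was larger in siPRMT5 than in siNS cells by 0.68 (SE 0.132, edgeR adjusted p = 0.00353), in the direction of S1PR1. SPNS2, the exporter of sphingosine 1-phosphate, fell with Dex by 1.004 (SE 0.103) in siNS and by 0.97 (SE 0.117) in siPRMT5 cells on the log2 scale, and in siHP1γ cells it changed by −0.46 (SE 0.0953), short of the fold threshold. KLF2, a transcription factor that activates S1PR1 in lymphocytes and endothelium, fell by 0.72 (SE 0.158) in siHP1γ and by 1.02 (SE 0.151) in siPRMT5 cells, and its change of −0.48 (SE 0.171) in siNS cells did not pass. PLPP3, which dephosphorylates extracellular lipid phosphates, responded less in siPRMT5 than in siNS cells, by −0.78 (SE 0.211, edgeR adjusted p = 0.0349). This call was lost when 1 siNS or siPRMT5 library was left out, except siNS Eth replicate 2 or siPRMT5 Eth replicate 1 (adjusted p of up to 0.103), and with DESeq2 (adjusted p = 0.0562). The call of KLF2 in siHP1γ cells was lost without siHP1γ Eth replicate 1 or 3 or Dex replicate 1 or 2 (edgeR adjusted p of up to 0.0581). It was also lost when only the libraries compared were fitted (edgeR adjusted p = 0.0323).

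Of 7 tested relatives of STOM, STOML1 rose with Dex in siPRMT5 cells by 0.62 (SE 0.163, edgeR adjusted p = 0.00866), a call lost in 10 of the 18 fits that left out 1 library and under 5 of 7 other settings (adjusted p of up to 0.0638 without siPRMT5 Dex replicate 1), and none was called for the difference between siPRMT5 and siNS cells. Of 7 tested LIM homeodomain genes and partners, LDB1, the cofactor that binds LIM domains, responded less in siPRMT5 than in siNS cells by −0.52 (SE 0.130, edgeR adjusted p = 0.0212), a call lost without siNS Eth or Dex replicate 1 or 3, siPRMT5 Eth replicate 1 or 2 or siPRMT5 Dex replicate 2 (adjusted p of up to 0.0898). LMO1 was called as higher with Dex in siPRMT5 cells at a mean of 0.778 CPM over all libraries. Of 5 tested olfactomedin genes, ADGRL3, a latrophilin, rose with Dex in siNS, siHP1γ and siPRMT5 cells by 2.90, 1.27 and 2.78 (SE 0.333, 0.269 and 0.306). OLFML2B, the paralog of OLFML2A, fell in siPRMT5 cells by 1.04 (SE 0.256, edgeR adjusted p = 0.00496), from 3.74 to 1.86 CPM, without a called difference from siNS cells (edgeR adjusted p = 0.130). The call of ADGRL3 in siHP1γ cells was lost without siHP1γ Eth replicate 1 or 2 or Dex replicate 1 (edgeR adjusted p of up to 0.0442). It was also lost when only the libraries compared were fitted (edgeR adjusted p = 0.0186). That of OLFML2B was lost without siPRMT5 Eth replicate 1 or 3 or Dex replicate 1 or 2 (edgeR adjusted p of up to 0.0406).

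In the stomatin, LIM and olfactomedin lists, 0, 0 and 1 gene were called for the Dex response in siNS and likewise in siHP1γ cells, 1, 1 and 2 in siPRMT5 cells, and 0, 1 and 0 for the difference, counts too small to set against the shares of all genes. The median difference of the Dex response between siPRMT5 and siNS cells was −0.38 over the CXCR4 list, −0.12 over the sphingosine 1-phosphate list, 0.03 over the stomatin list, −0.30 over the LIM list and −0.31 over the olfactomedin list, against −0.00327 over all genes tested. The members themselves are left out of these lists. The plot of related genes gives their Dex responses.

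**Figure D4:**
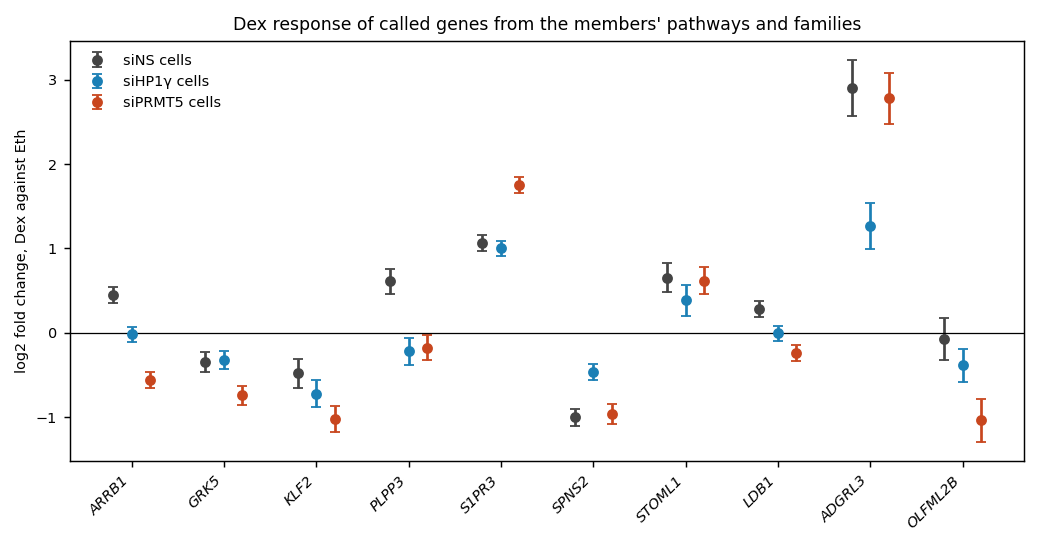
Log2 fold change of Dex against Eth (vertical axis) in siNS, siHP1γ and siPRMT5 cells for the 10 genes of the members' pathways and families averaging 1 CPM or more that were called for a Dex response or for its difference between siPRMT5 and siNS cells. Bars are ± 1 SE from 3 replicates per condition. ARRB1 goes from 0.45 in siNS to −0.56 in siPRMT5 cells, S1PR3 lies above 0 in all cells and KLF2 and GRK5 below 0.

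STOM, LHX6 and OLFML2A lie on chromosome 9 within 3.48 Mb, with gaps of 832 kb between STOM and LHX6 and 2548 kb between LHX6 and OLFML2A. The stretch holds 18 other tested genes, whose difference of the Dex response between siPRMT5 and siNS cells ranged from −0.74 to 0.47. DAB2IP, next to STOM, and NEK6, 2 of the 18 against 3.8% of all genes, were called for it, at −0.74 (SE 0.138, edgeR adjusted p = 0.00278) and −0.40 (SE 0.107, edgeR adjusted p = 0.0336). GSN, 6143 bases from STOM, RBM18, 7995 bases from LHX6, and NR6A1, 5821 bases from OLFML2A, were not called (edgeR adjusted p = 0.465, 0.756 and 0.119). TTLL11 was the only other gene of the stretch called for a Dex response in siNS cells or in siPRMT5 cells, by 1.39 and 1.44. HNRNPKP2, a neighbour of CXCR4, and DPH5 and RPSAP19, the nearest tested neighbours of S1PR1, were not called for the difference (edgeR adjusted p = 0.861, 0.396 and 0.998).

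The genes whose log2 CPM followed a member most closely over the 18 libraries were taken from 11410 genes averaging 5 CPM or more. They were MTIF2, AC009237.14 and TRMT12 for CXCR4 (Pearson's r = 0.737, 0.707 and 0.703), DHX33, RRS1 and STOM for S1PR1 (0.907, 0.892 and 0.891), SORT1, SAT1 and CMTM8 for STOM (0.929, 0.913 and 0.912), BCL2L1, TUBB2A and B3GNT5 for LHX6 (0.938, 0.928 and 0.917) and CD82, ITPKB and PPM1F for OLFML2A (0.943, 0.929 and 0.927). The 18 libraries share 6 conditions, so such an r is a description. CD82, a tetraspanin, was at 16.1 ± 3.09 CPM with Eth and 5.90 ± 0.580 CPM with Dex in siPRMT5 cells (SD, n = 3), and SORT1, the sorting receptor sortilin, at 265 ± 28.0 and 676 ± 28.3 CPM. MTIF2 followed CXCR4 with a far smaller range, from 103 ± 4.74 to 121 ± 1.10 CPM in siPRMT5 cells. Among the members, STOM ran with S1PR1 (r = 0.891) and against OLFML2A (r = −0.83), signs that the choice by the response in siPRMT5 cells favoured. LHX6 had an r between −0.193 and 0.399 with each of the others. Over the 6 condition means, DHX33 for S1PR1 was the only 1 of these 15 genes that stayed among the first 3.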

How the data were processed

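Per the study's methods, Lexogen library kits and an Illumina NextSeq sequencer were used, and the authors aligned reads to hg38 by Bowtie2 (version 2.4.2) before htseq-count (version 0.9.1). The authors deposited whole-number counts per gene symbol for each library, without normalization. The annotation and strand setting are not given in the sources used here. Bowtie2 does not split reads over introns, so junction reads can be lost. A deposited table of the authors' own comparisons, made with DESeq2, was not used.

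Genes were kept by filterByExpr over the 6 conditions and scaled by TMM. All 18 libraries entered 1 quasi-likelihood fit with 1 mean per condition (edgeR 4.0.16, R 4.3.3), with 12 residual degrees of freedom and Benjamini-Hochberg adjustment over the 15298 genes. A Dex response was called at an adjusted p under 0.01 with a change of 1.5-fold or more, and a difference of the Dex response at an adjusted p-value under 0.05. The fit was tested on simulated counts. Members were named by the choice, list genes when called with a mean of at least 1 CPM, and followers as the 3 highest r. LMO1, below that mean, was named after its value was seen. The members and lists were chosen with earlier results of these data known. The methods call the replicates biological without saying how they were grown, so p-values measure the spread between these samples. The variance between the counts of 2 replicates was 2.1 to 12.3 times that of sampling noise (chi-square per degree of freedom). The highest values, 12.3 and 7.38, were those of siHP1γ Dex replicate 1 against replicates 3 and 2. These libraries enter the test of the Dex response in siHP1γ cells. Precision at low counts is limited: at the median count of CXCR4, S1PR1, LHX6 and OLFML2A, counting alone gives a coefficient of variation of 13 to 14.7%, against 4.58% for STOM.

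Positions are from GENCODE 44, and promoters from RefSeq (GRCh38.p14), where all 5 members matched. The RefSeq start of LHX6 lies 524 bases downstream of the canonical start in GENCODE. The bases just before that canonical start were therefore not part of the promoter scan. The alternatives were DESeq2 1.42.0, DESeq2's size factors, library size alone, no filter, the replicate number as a block, a minimum of 10 counts in all libraries, only the libraries compared, and each library left out. For single list genes, all but the missing filter and the block, and for KDR and PECAM1 all, were added after the data were seen. Some items are not reported here.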

Additional observations from a re-analysis of the deposited data

Results flagged for a closer look

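CXCR4 was noted because all its libraries moved one way with Dex in siNS cells and the other way in siPRMT5 cells, a difference of 2.58 (SE 0.274) on the log2 scale that was not tested, as CXCR4 was chosen by it.

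The Dex response of several genes of the members' pathways, of GR targets and of KDR, an endothelial marker, differed between siPRMT5 and siNS cells by an interaction term in edgeR's quasi-likelihood fit. It was higher in siPRMT5 cells for DUSP1 (1.22), KDR (1.27, SE 0.307, edgeR adjusted p = 0.018), FKBP5 (0.84), S1PR3 (0.68) and ERRFI1 (0.68). It was lower for ARRB1 (−1.01), PLPP3 (−0.78) and LDB1 (−0.52). The calls of ARRB1, S1PR3, FKBP5, DUSP1 and ERRFI1 were kept in all 18 fits that left out 1 library and under the 7 other settings. That of KDR was kept under the 7 other settings and lost without siNS Eth replicate 2 or siPRMT5 Eth replicate 1 (edgeR adjusted p of up to 0.0599). PECAM1, the only other endothelial marker tested, was not called for this difference and went the other way. Over the alternative fits it rose with Dex by 1.57 to 1.755 in siNS cells and by 0.940 to 1.187 in siPRMT5 cells (log2).

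Between siHP1γ and siNS cells, the Dex response was lower for TSC22D3 (−1.003, edgeR adjusted p = 0.00104), PER1 (−0.75, edgeR adjusted p = 0.0195), KLF9 (−0.69, edgeR adjusted p = 0.0229) and SGK1 (−0.55, edgeR adjusted p = 0.0209). That of TSC22D3 was called in all 18 fits with 1 library left out. PER1 and KLF9 were called in 12 of them and SGK1 in 13.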

How the results depend on the processing

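The Dex responses of the 5 genes kept their direction under the 7 other settings and in the 18 fits that left out 1 library each, except that of STOM in siNS cells, which lay near 0 throughout (−0.12 to 0.08 with 1 library left out). For siNS and siPRMT5 cells this is a description, since the same libraries served for the choice of genes. LHX6 was called in siHP1γ cells in every fit (1.18 to 1.31 with 1 library left out), and the other 4 genes in none. Without 1 library, the Dex response of LHX6 in siPRMT5 cells was 0.18 (without Eth replicate 1) to 0.64 (without Eth replicate 3), and its difference from siNS cells −2.03 to −1.57.

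The number of genes called for a difference of the Dex response depended on the libraries. Between siPRMT5 and siNS cells it was 582, and from 319 to 897 with 1 library left out. It was 319 and 337 without siNS Eth replicate 1 or 3, 330 and 355 without siNS Dex replicate 1 or 3, 341 without siPRMT5 Eth replicate 2, 355 without siPRMT5 Dex replicate 2 and 897 without siHP1γ Dex replicate 1. Between siHP1γ and siNS cells it was 61, against 300 with DESeq2, 374 without a filter, 94 with the replicate block and 20 to 186 with 1 library left out. It was 20, 186 and 25 without siNS Eth replicates 1, 2 and 3, 24 without siNS Dex replicate 1 or 3, and 26 and 24 without siHP1γ Eth replicate 1 or 3. The cause was not tested.

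The replicate numbers were not taken to pair the samples, since 13 of 45 same-numbered pairs of libraries had a correlation of deviations over 0.1 (−0.439 to 0.603). Of the 15 pairs of conditions, siNS Eth with siHP1γ Dex had all 3 over 0.1 (0.211 to 0.603), and the block raised the count between siHP1γ and siNS cells from 61 to 94. With the replicate number as a block, LHX6 kept its call in siHP1γ cells, and STOML1 lost its call in siPRMT5 cells (adjusted p = 0.0124 in edgeR). At 12 to 34 counts per library, LHX6 in siPRMT5 cells could hide a Dex response. The 95% interval of that response, given as a description, was −0.09 to 0.91 on the log2 scale and reached past the 1.5-fold threshold.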
